A study of Mus musculus with 2 samples.

Results

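Plasmacytoid dendritic cells of the mouse omentum were picked out of 2 droplet single-cell RNA libraries by the genes they expressed. A cell counted as a member if it had 200 to 7500 detected genes, at least 1 UMI (unique molecular identifier, a tag that counts captured RNA molecules) of Siglech and at least 2 of the supporting genes Ccr9, Klk1, Cox6a2, Tcf4 and Bst2, and no UMI of the T cell gene Cd3e, the B cell gene Ms4a1, the macrophage gene C1qa or the cDC1 gene Xcr1. This left 56 of 8680 cells in the WT library and 17 of 5734 in the Postn-DTR library, together 73 of 14414. Members were thus chosen by their own UMIs of these genes, so their levels of the rule genes are a description and nothing is rested on them.

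Each library came from the omenta of 3 pooled mice, so there was 1 library per group and no test between groups was possible; intervals below cover counting error only. Both groups were given diphtheria toxin (DT) and taken 5 days later. Postn-DTR mice were heterozygous for a DT receptor cassette placed by CRISPR in the first coding exon of Postn on a C57BL/6 background, so DT removes cells that use the Postn promoter, in the omentum the periostin-expressing fibroblastic stromal cells and elsewhere any other Postn-positive cell; WT mice lacked the cassette. No sort of the cells, and neither the age nor the sex of the mice, is given in the sources used here.

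Plasmacytoid dendritic cells are bone marrow-derived cells that detect the nucleic acids of viruses in endosomes through Toll-like receptors and can release large amounts of type I interferon. Their identity is held by the E protein TCF4 (also called E2-2), together with IRF8, SPIB, RUNX2 and BCL11A, whereas conventional dendritic cells depend on factors such as ID2, BATF3 and ZBTB46. The mouse lectin Siglec-H, the tetherin BST2 and the gut-homing receptor CCR9 are the surface proteins most used to recognise them. The omentum is a fatty fold of the peritoneum that holds lymphoid clusters called milky spots. Where in the omentum the plasmacytoid cells lay was not measured here.

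The promoters of 4 of the genes that marked the members are shown because TCF4 belongs to a family that binds E-boxes. Each line gives 300 bases from RefSeq (GRCm38.p6, plus strand), 250 before and 50 after the annotated start, with any E-box of the form CAGGTG or CACCTG in capitals.
Siglech, chr7:55767934-55768233: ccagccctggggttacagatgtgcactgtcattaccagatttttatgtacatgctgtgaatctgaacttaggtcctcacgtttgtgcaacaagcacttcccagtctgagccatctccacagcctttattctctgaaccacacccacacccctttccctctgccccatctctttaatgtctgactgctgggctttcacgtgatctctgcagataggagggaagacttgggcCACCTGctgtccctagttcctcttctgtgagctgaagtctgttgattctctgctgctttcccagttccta
Klk1, chr7:44225110-44225409: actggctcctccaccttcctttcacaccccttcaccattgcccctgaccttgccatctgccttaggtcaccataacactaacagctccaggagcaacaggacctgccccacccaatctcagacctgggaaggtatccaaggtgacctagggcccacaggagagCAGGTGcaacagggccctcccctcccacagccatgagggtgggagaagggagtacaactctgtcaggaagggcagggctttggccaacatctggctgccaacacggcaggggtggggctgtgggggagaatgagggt
Klk1b27, chr7:44052040-44052339: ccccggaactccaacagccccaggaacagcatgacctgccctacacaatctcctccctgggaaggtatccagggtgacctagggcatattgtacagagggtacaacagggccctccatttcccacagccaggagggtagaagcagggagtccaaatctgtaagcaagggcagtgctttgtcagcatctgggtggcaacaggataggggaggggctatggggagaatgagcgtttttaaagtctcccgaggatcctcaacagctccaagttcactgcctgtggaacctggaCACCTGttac
Ccr9, chr9:123766961-123767260: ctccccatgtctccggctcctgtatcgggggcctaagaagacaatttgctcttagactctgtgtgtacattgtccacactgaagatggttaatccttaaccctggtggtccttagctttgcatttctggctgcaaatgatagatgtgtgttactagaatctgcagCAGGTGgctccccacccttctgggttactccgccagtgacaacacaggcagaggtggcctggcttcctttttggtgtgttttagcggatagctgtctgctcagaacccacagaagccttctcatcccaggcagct
The E-box lay 20 to 15 bases before the start of Siglech, 87 to 82 before that of Klk1 and 85 to 80 before that of Ccr9, but 41 to 46 bases after the start in Klk1b27. Of the 12 marker genes with a promoter sequence, 7 held a match on either strand, the others being Bst2, Cd300c and, at the second of its start sites only, Irf8. Pacsin1, Klra17, Spib, Runx2 and Pld4 held none. Across all 32851 mouse promoters of this length 20.2% held the hexamer. Counted by gene, with a match at any start site, it was 22.6% of 27025 genes. In the same count it was present in 18.9% of the 6007 tested genes with a promoter sequence. It was present in 26.2% of the 263 such genes called 4-fold or more higher in members than in the other WT cells. Of the 20 genes with the highest ratios, 14 had a promoter sequence and 6 of these held it. The called and the highest genes include the rule genes Siglech, Klk1 and Ccr9, which hold the hexamer. These shares are thus not independent of the rule and are a description only. A composite of ETS and IRF sites (GGAA and GAAA with 2 bases between them, either strand) was found in none of the promoters of 12 marker genes examined and in 2.72% of all promoters. Such matches describe letters in these windows and not binding.

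In the WT library 88 cells had Siglech UMIs, of which 81 had at least 2 supporting genes and 25 of these were left out by a lineage gene. Ms4a1 was detected in 18 of the cells left out, Cd3e in 7, C1qa in 3 and Xcr1 in 2, some having more than 1 of these genes. The cells left out had a median of 17320 UMIs against 8360 in members, and a median of 16 Siglech UMIs against 15. Among them 13 fell in the cluster that held most members, and 6 had no more than 1 UMI of all lineage genes together. Only 37 of the 56 WT members had all 5 supporting genes; 11 had 4, 3 had 3 and 5 had the minimum of 2. At the edge of the rule, the 3 members with 1 Siglech UMI had 3 to 9 Bst2 UMIs and 0, 0 and 35 Irf8 UMIs, while 7 WT cells with Siglech and fewer than 2 supporting genes had 0 to 6 Bst2 UMIs. In the Postn-DTR library 24 cells had Siglech, 23 had enough supporting genes and 6 were left out, 3 of them with Ms4a1 and 3 with C1qa. A Siglech UMI was carried by 6 of 3060 WT T cells (0.196%, 95% exact binomial interval 0.0720 to 0.426). In Postn-DTR it was 0 of 497 T cells (0.604% if a count of 0 is read as up to 3 cells). The T cells had a median depth of 4785 and 4616 UMIs, below that of members. Of all 8624 other WT cells 32 (0.371%) had a Siglech UMI. The part of free RNA in Siglech was not tested.

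**Figure D1:**
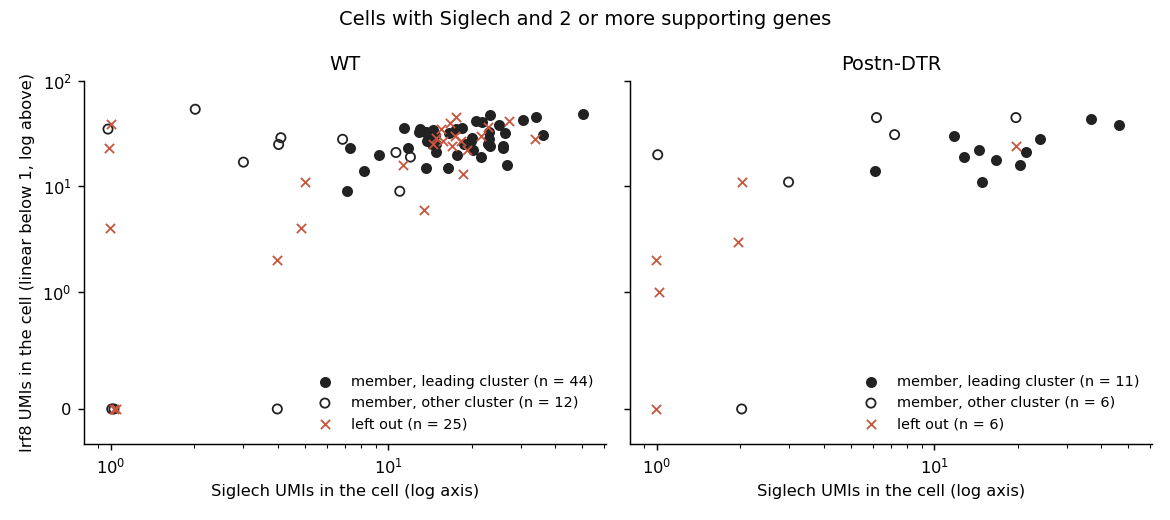
Siglech UMIs (log axis) against Irf8 UMIs (linear below 1, log above) in each cell with Siglech and 2 or more supporting genes, WT left and Postn-DTR right; points are shifted slightly sideways where they coincide. Filled circles are members in the leading cluster, open circles members elsewhere and crosses cells left out by a lineage gene; the 44 WT members of the leading cluster all had 7 or more Siglech and 9 or more Irf8 UMIs.

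When all cells were clustered, 44 of 56 WT members and 11 of 17 Postn-DTR members fell in a single cluster, called the leading cluster here, in which members made up 75.9% of WT and 91.7% of Postn-DTR cells. A further 8 WT and 6 Postn-DTR members fell in a cluster led by the cDC2 genes Cd209a and Clec10a, and 4 WT members were scattered over other clusters. The label therefore held for most members and not for all. In the leading cluster every WT member had 7 or more Siglech UMIs and 9 or more Irf8 UMIs, and none had over 1 UMI of S100a8, over 2 of Jchain or over 1 of Cd79a. Outside it, 2 WT members carried 1700 and 1406 UMIs of the neutrophil gene S100a8, and 2 carried 1019 and 1115 UMIs of the plasma cell gene Jchain. Another had 35 Irf8, 13 Clec9a and 348 H2-Aa UMIs with 1 Siglech UMI, and 3 of the 12 had no Irf8. Scrublet called none of the members a doublet, with 1.12% of WT and 1.92% of Postn-DTR cells called overall. The libraries shared 65 cell barcodes, of which members held 1 in WT and 1 in Postn-DTR. Values for the leading cluster are therefore given beside those of all members wherever they differ in direction.

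Members made up 0.645% of WT cells (0.488 to 0.837) and 0.296% of Postn-DTR cells (0.173 to 0.474), a ratio of 0.460 (0.267 to 0.790). The libraries differed widely in their other cells, because cells gated as plasma cells or neutrophils made up 18.0% of WT and 60.4% of Postn-DTR cells. The gate rested on UMIs of marker genes and also caught 11 WT and 5 Postn-DTR members, and some B2 cells. A Jchain UMI was found in 27.0% of WT and 52.1% of Postn-DTR T cells. The part of free RNA in the gated shares was not tested. When all gated cells were taken out, members among them, the shares were 0.632% and 0.528%, a ratio of 0.836 (0.443 to 1.58). When those cells were taken out of the total and all members kept, a setting not planned beforehand, the shares were 0.786% (0.594 to 1.02) and 0.747% (0.436 to 1.19). That gave a ratio of 0.951 (0.554 to 1.63). On the same footing the ratio was 0.314 (0.169 to 0.582) for cDC1, the conventional dendritic cells that cross-present antigen, and 0.356 (0.225 to 0.564) for Cd209a-expressing cDC2, the conventional dendritic cells that mainly present antigen to CD4 T cells. It was 0.843 (0.771 to 0.922) for B2 cells, the follicular B cells. Thus the plasmacytoid share was lower in Postn-DTR over all cells. Over the remaining cells its ratio was 0.836 or 0.951, with intervals that hold both lower and higher shares. The share of a library cannot tell fewer plasmacytoid cells from more of the others, and 3 pooled mice give no spread between animals.

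**Figure D2:**
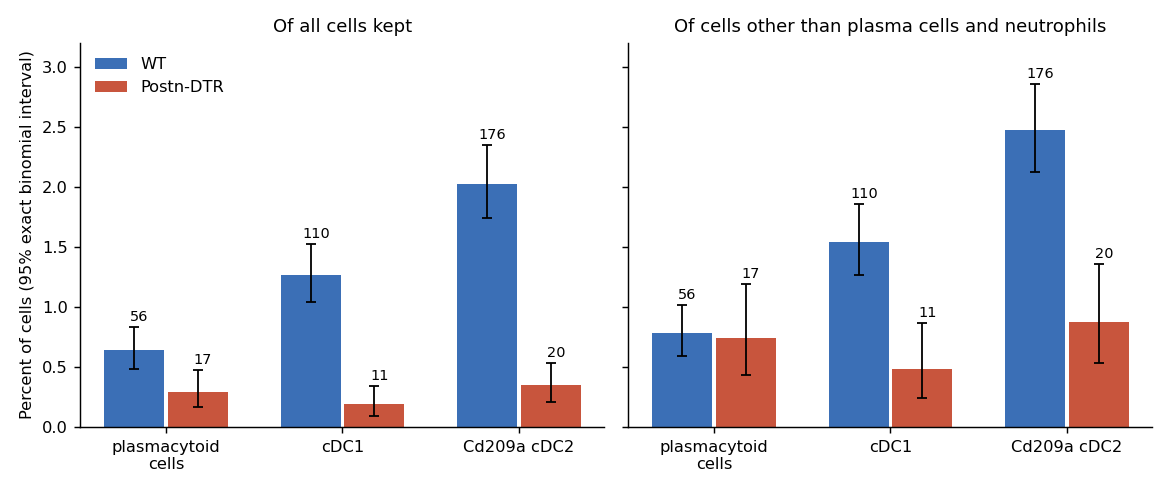
Percent of cells that were plasmacytoid cells, cDC1 or Cd209a cDC2 in WT (blue) and Postn-DTR (red), over all cells kept (left) and over cells other than plasma cells and neutrophils (right); error bars are 95% exact binomial intervals and numbers above the bars are cells. The plasmacytoid bars differ on the left (0.645% and 0.296%) and overlap almost wholly on the right (0.786% and 0.747%). On the right, members caught by the gate were kept, which was not planned beforehand.

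Levels are given as UMIs per 10000 UMIs of a cell, averaged over cells with the SD between cells. Siglech (ENSMUSG00000051504, chr7:55768178-55778925, plus strand, mm10), a lectin that takes up antigen and signals through an adaptor, ranged from 0.266 to 37.7 in WT members with a median of 19.9 and a mean of 19.0 ± 10.2 (n = 56 cells). In the 17 Postn-DTR members it ranged from 1.76 to 42.2, with a median of 20.6 and a mean of 18.7 ± 13.4. The ranges of the libraries overlapped almost completely. Bst2 (ENSMUSG00000046718, chr8:71534255-71537456, minus strand), which tethers budding virus to the cell, was detected in every member, from 1.33 to 76.0 in WT and from 11.8 to 74.3 in Postn-DTR, with medians of 49.5 and 46.6. Tcf4 was detected in 55 of 56 WT members at a mean of 10.4 ± 5.25 and in all 17 Postn-DTR members at 7.91 ± 4.31.

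The remaining rule genes were uneven from cell to cell. Klk1 (ENSMUSG00000063903, chr7:44225360-44229618, plus strand), a tissue kallikrein protease, was found in 43 of 56 WT members, with a median of 7.99 and a highest value of 63.3. In Postn-DTR it was found in 11 of 17, all of them in the leading cluster, with a median of 27.5 and a highest value of 83.8. Outside the leading cluster it averaged 0.111 in the 12 WT members and had no UMI in the 6 Postn-DTR members. Ccr9 (ENSMUSG00000029530, chr9:123678439-123784330, plus strand), the receptor for the chemokine CCL25, was found in 47 WT and 12 Postn-DTR members at means of 5.13 ± 4.93 and 7.18 ± 8.20. Cox6a2 (ENSMUSG00000030785, chr7:128205435-128206387, minus strand), which encodes the muscle form of a cytochrome c oxidase subunit, was found in 47 WT and 10 Postn-DTR members, and its level differed between the libraries as described further on. Thus Siglech, Bst2 and Tcf4 were near universal, and Klk1, Ccr9 and Cox6a2 were each missing from some members.

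**Figure D3:**
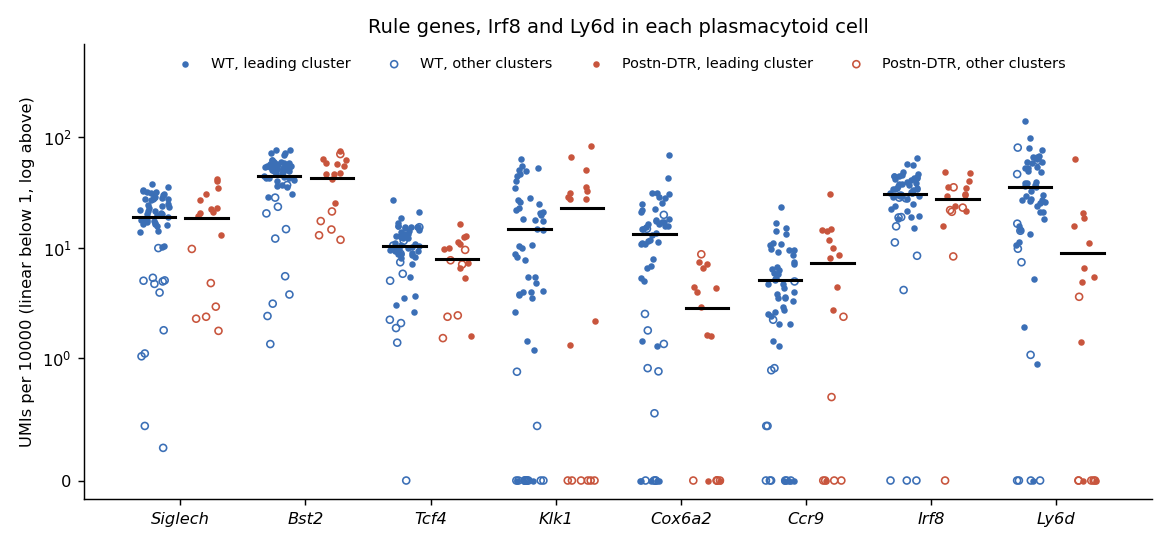
Level of the rule genes, Irf8 and Ly6d in each member, in UMIs per 10000 (linear below 1, log above), WT in blue and Postn-DTR in red; filled points are members in the leading cluster, open points members elsewhere, and the bar is the mean of all members of that library. Siglech, Bst2, Tcf4 and Irf8 overlap between libraries, and the Postn-DTR points of Cox6a2 (highest 8.70) and most of those of Ly6d lie below the WT means of 13.3 and 35.1.

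Klk1 was accompanied by a related kallikrein gene. Klk1b27 (ENSMUSG00000063177, chr7:44052290-44056712, plus strand) had UMIs in 31 of 56 WT members, 29 of which also had Klk1, and there were 8.97 Klk1 UMIs for each Klk1b27 UMI in WT members and 8.28 in Postn-DTR members. Their longest transcripts were 78.2% identical and shared no stretch of 90 bases, while 9.48% of the 90-base windows of Klk1 occurred in other kallikrein transcripts, so a part of the Klk1 reads could in principle be divided among paralogs. Of the other family members in the files, Klk1b11 had no UMI in WT members and Klk1b9 had 2.

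Over the 8624 other WT cells, 353 of 7399 genes (4.77%) detected in at least 10% of members were 4-fold or more higher in members on the log2(mean + 0.02) scale. In Postn-DTR it was 626 of 7671 (8.16%). These ratios include the genes of the rule. The 20 highest in WT were led by Siglech (log2 ratio 8.61), Klk1 (8.17), Cox6a2 (7.76) and Cd209d (7.27), a C-type lectin of the DC-SIGN family, at 5.38 UMIs per 10000 in members and 0.0150 in the other cells. Next came Gm21762, Cd300c, Atp2a1, Smim5, Lrp8 and Klra17. Atp2a1, the calcium pump of fast skeletal muscle, was found in 39 of 56 members at 1.77 and in other cells at 0.00365. Lrp8, a receptor for reelin and apolipoprotein E, averaged 3.30, and Lefty1, an inhibitor of Nodal signalling, 1.81. Ctsl, the lysosomal protease cathepsin L, averaged 13.4 against 0.243 in the other cells and 0.0864, 0.198 and 0.0861 in cDC1, cDC2 and B2 cells. The 20 highest ratios of Postn-DTR members held 14 of the same genes, with Klk1 and Siglech leading.

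The lowest ratios in WT went to lymphocyte genes, which for Cd3e and Ms4a1 the rule itself fixed. For other T and B cell genes the rule set the low levels in part, since cells with Cd3e or Ms4a1 were left out. Among the others, Cd3g, Trbc2 and Ebf1 had no UMI in WT members, Cd79a, the B cell receptor subunit, averaged 0.130 against 13.3 in the other cells, and Ccr7, the lymph node homing receptor, averaged 0.0882 against 2.96. S1pr1, the receptor with which lymphocytes leave lymphoid tissue, had no UMI in 56 WT or 17 Postn-DTR members (a count of 0 read as up to 3 cells allows 5.36% and 17.6% of cells with a UMI) and averaged 1.62 in the other WT cells.

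Of 10 transcription factors known for plasmacytoid cells, 7 passed the 4-fold threshold over the other WT cells and 8 in Postn-DTR, beside 4.77% and 8.16% of all tested genes; Tcf4 among them is a rule gene. Irf8, which plasmacytoid cells share with cDC1, had the highest level of the 4 classes in members, at 30.8 ± 14.0 against 17.8 in cDC1, 0.508 in cDC2 and 3.85 in B2 cells. Members were 1.72-fold over cDC1 and 58.3-fold over cDC2 on the log2(mean + 0.02) scale. Runx2, which guides their exit from bone marrow, averaged 4.71 and was 61.0-fold over cDC1, 17.8-fold over cDC2 and 138-fold over B2 cells. Spib averaged 2.65 in members, 1.96 in B2 cells and 0.339 in cDC2, with 1 UMI over the 110 cDC1 cells. Bcl11a averaged 4.28 against 2.34 in B2 cells, 1.11 in cDC2 and 0.372 in cDC1. Irf7, the factor that drives interferon genes, was found in 37 WT and 15 Postn-DTR members at 1.58 and 2.57. The exceptions were Spib and Cbfa2t3, whose log2 ratios over all other cells were 1.90 and 1.47, and Ets1, whose log2 ratio was -1.87 and which averaged 1.06 in members and 3.85 in B2 cells.

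Of 7 factors of conventional dendritic cells, 4 were at least 2-fold lower in WT members than in cDC1 and 4 than in cDC2, where 13.5% and 14% of all tested genes were. Against cDC1 1 was higher, Irf4, and none was higher than in cDC2, beside 18.4% and 15.8% of all tested genes. Against B2 cells 3 were higher and 1 lower, beside 15.6% and 11.4%. None passed the threshold over the other WT cells, and 1 did in Postn-DTR, beside 4.77% and 8.16% of all tested genes. Id2, which blocks E proteins, averaged 0.222 in members and 6.46 in cDC1, with a UMI in 5 of 56 WT members. Batf3 and Zbtb46 were each found in 4 WT members, and Zbtb46 in none of those in the leading cluster.

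The surface and granule genes of plasmacytoid cells followed the rule genes. Of 27 listed, all were detected in 10% or more of WT members and 23 were 4-fold or more above the other cells, beside 4.77% of all tested genes. Against the classes most like them, 23 of 27 were at least 2-fold above cDC1 (18.4% of all tested genes were), 26 above cDC2 (15.8%) and 26 above B2 cells (15.6%). Cd300c, a paired immunoglobulin-like receptor, averaged 3.56 in WT and 3.49 in Postn-DTR members, and 0.163, 0.176 and 0 in WT cDC1, cDC2 and B2 cells. Pacsin1, an endocytosis adaptor, averaged 2.79 and was at least 211-fold higher than in cDC2, where it had no UMI and 3 UMIs were taken as the floor over the group. Lag3, a receptor that binds MHC class II, averaged 2.75 against 0.0480, 0.127 and 0.00989. Klra17, an Ly49 receptor, was found in 39 of 56 members. Mpeg1, the pore former perforin-2, and Flt3, the receptor for the main dendritic growth factor, were shared with cDC1, at 12.6 against 8.44 and 1.83 against 1.95. Ly6d was high in members and in B2 cells alike, at 35.1 and 27.4, with 0.0804 in cDC1 and 0.143 in cDC2. Cd4 and Cd8a, surface proteins that vary between plasmacytoid subsets, were found in 40 and 18 of the WT members.

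Siglec-H signals through the adaptor DAP12, and the 9 listed genes of this pathway were each detected in 10% or more of WT members. Besides the rule gene Siglech, 1 of the other 8 passed the 4-fold threshold over the other WT cells, Tyrobp, beside 4.77% of all tested genes. Tyrobp, which encodes DAP12, averaged 50.2 in WT members against 22.7 in cDC2, 7.19 in cDC1 and 1.35 in B2 cells. Blnk, the scaffold that plasmacytoid cells share with B cells, averaged 2.22 in members and 2.43 in B2 cells, with 0.167 in cDC2. Pik3ap1, the B cell adaptor BCAP, averaged 2.37 against 1.05 in cDC1 and 0.616 in cDC2. The kinase Syk and the phospholipase Plcg2 were within 2-fold of cDC2 and B2 cells, and Btk was lower in members (0.239) than in B2 cells (0.903).

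Among 27 genes of nucleic acid sensing, 20 were detected in 10% or more of WT members and 5 passed the threshold over the other WT cells (4.77% of all tested genes did), Tlr7, Tlr9, Tlr12, Pld4 and Irf7. Against cDC1 8 of 25 were at least 2-fold higher and 3 lower, against cDC2 6 of 26 were higher and 6 lower, and against B2 cells 9 of 26 were higher and 2 lower, where 18.4%, 15.8% and 15.6% of all tested genes were higher and 13.5%, 14% and 11.4% lower. The endosomal receptor for single-stranded RNA, Tlr7, was found in 31 of 56 WT members at 1.34, and had no UMI in 110 cDC1, so that members were at least 105-fold higher against a floor of 3 UMIs over the group. They were 15.7-fold over cDC2 and 6.35-fold over B2 cells. Tlr9, the receptor for unmethylated CpG DNA, was found in 25 members at 0.898, against 0.137 in cDC1, 0.216 in cDC2 and 0.336 in B2 cells. Tlr12, a receptor for profilin of parasites, was found in 19 members and in cDC1 at 0.388, while cDC2 averaged 0.00198. Receptors of other cells were scarce, Tlr3 with a UMI in 1 member, Tlr2 in 5, Tlr4 in 2 and Tlr8 in none. The proteins that carry or adapt these receptors were broadly shared: Unc93b1, which takes them to endosomes, was found in every member of both libraries at 9.20 and 9.07, within 2-fold of cDC1 (5.86), cDC2 (4.86) and B2 cells (5.17). Slc15a4, the endolysosomal transporter that plasmacytoid cells need for TLR7 and TLR9 signals, averaged 1.40 against 0.183, 0.880 and 0.610. Pld4, an exonuclease that trims single-stranded nucleic acids in lysosomes, averaged 9.23 against 3.66, 3.56 and 1.46. The cytosolic RNA helicases Ifih1 and Ddx58 had UMIs in 4 and 2 members.

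**Figure D4:**
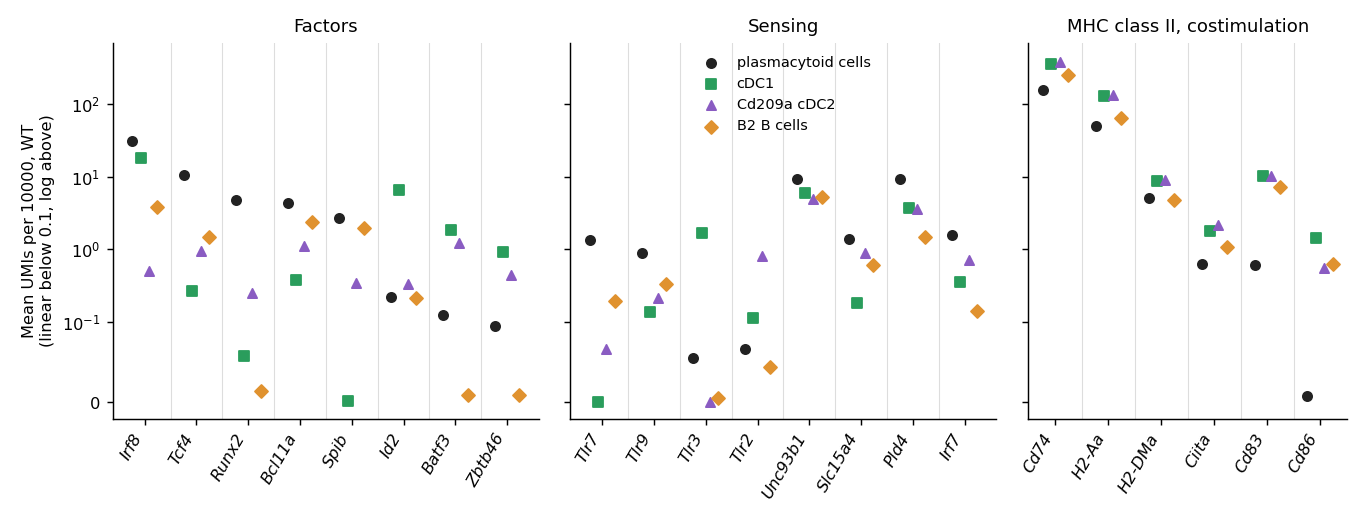
Mean level in WT plasmacytoid cells (n = 56), cDC1 (n = 110), Cd209a cDC2 (n = 176) and B2 cells (n = 1785), in UMIs per 10000 (linear below 0.1, log above). Plasmacytoid cells stand highest for Irf8, Tcf4, Runx2, Bcl11a, Spib, Tlr7 and Tlr9, and lowest of the 4 classes for Cd74, H2-Aa, Ciita, Cd83 and Cd86.

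Of 20 type I and III interferon genes listed, only Ifnz could be analysed here and it had no UMI in members. Among 29 genes of the interferon response, 12 were detected in 10% or more of WT members and 4 had no UMI. Over the other WT cells 2 passed the threshold (4.77% of all tested genes did), the deubiquitinase-like Usp18 and the receptor subunit Ifnar2. Against cDC1 11 of 18 tested genes were at least 2-fold higher and none lower, beside 18.4% and 13.5% of all genes. Against cDC2 6 of 27 were higher and 12 lower, beside 15.8% and 14%, and against B2 cells 7 of 27 were higher and 3 lower, beside 15.6% and 11.4%. Ly6e, a GPI-anchored protein of the interferon response, was found in every WT member at 34.9 against 17.3 in cDC1 and 11.6 in cDC2, and Trim30a in 44 of 56 at 2.07 against 0.892 and 0.803. Ifit1, Ifit3, Ifit3b and Rtp4 were the genes with no UMI, and Rsad2, Oas2, Oas3 and Ifi204 had UMIs in 1 WT member each. Isg15 was found in 5 members, with a highest value of 19.8 in 1 of them against a median of 0. Ifnar2 was found in 52 of 56 members at 4.41 against 1.06 in cDC1 and 0.487 in B2 cells, and Stat2, which carries the receptor's signal, averaged 0.646 against 0.173 and 0.253.

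Antigen presentation genes were lower than in the other antigen-presenting classes. Of the MHC class II and costimulation genes, 12 of 16 tested were at least 2-fold lower in WT members than in cDC1, 14 of 17 than in cDC2 and 8 of 17 than in B2 cells, beside 13.5%, 14% and 11.4% of all genes. H2-Aa, an MHC class II alpha chain, averaged 50.2 against 129.8, 135 and 65.1, and Cd74, the invariant chain, 157 against 354, 379 and 248. The costimulatory genes were detected in few members, with Cd86 in 1 member, Cd80 and Cd40 in 2 each and Cd83 in 12. Cd83 averaged 0.604 against 10.3 in cDC1 and 10.3 in cDC2. The exceptions, within 2-fold of both dendritic classes, were H2-DMa, H2-DMb2 and H2-Oa, which averaged 5.13, 1.55 and 2.63 in members and 9.07, 2.77 and 2.64 in cDC2.

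Of 18 listed homing genes, 1 passed the threshold over the other WT cells, the rule gene Ccr9, beside 4.77% of all tested genes. Against cDC1 6 of 14 tested were at least 2-fold higher and 1 lower, against cDC2 7 of 14 and 2, and against B2 cells 8 of 16 and 3, with the same shares of all genes as for the sensing genes. Selplg, the selectin ligand PSGL-1, averaged 9.82 in WT members against 3.92 in cDC1, 3.74 in cDC2 and 0.574 in B2 cells. The chemokine receptor genes Cxcr3, Ccr2 and Cxcr4 averaged 0.523, 1.73 and 0.989 in members. The integrin genes Itga4 and Itgb7, whose product binds MAdCAM-1, were found in 47 and 46 members, within 2-fold of each of the other classes.

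Of 14 listed effector genes, 4 were detected in 10% or more of WT members and 1 passed the threshold over the other WT cells. In Postn-DTR 3 passed it, beside 4.77% and 8.16% of all tested genes in the 2 libraries. Ccl4, the chemokine MIP-1β, had UMIs in 48 of 56 WT members, with a median of 14.0, a highest value of 209 and a mean of 26.9 ± 39.3, so the spread between cells exceeded the mean. It averaged 1.06 in cDC1, 2.02 in cDC2 and 0.173 in B2 cells, and 131 of 3060 WT T cells (4.28%) had a UMI. Ccl3 was found in 17 members at 1.07. Il12a was found in 4 and Tnf in 8 WT members, and Il12b, Il10, Cxcl9 and Gzmb in none. Of 12 cytokine receptors, 3 passed the threshold over the other cells in WT and 2 in Postn-DTR, beside the same shares of all genes. Against WT cDC1, cDC2 and B2 cells, 4, 3 and 7 of the 12 were at least 2-fold higher (18.4%, 15.8% and 15.6% of all genes). Lower were 2, 4 and 2 (13.5%, 14% and 11.4%). Csf2rb2, the mouse receptor chain that answers to interleukin-3 only, averaged 3.1 against 0.311, 0.375 and 0.0117, and Il7r averaged 2.11 against 0.00805, 0.0678 and 0.0458. Ifngr1, by contrast, averaged 0.543 against 6.69 in cDC1 and 4.58 in cDC2.

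Plasmacytoid cells are named for their plasma cell-like cytoplasm. Of 22 secretory pathway genes none passed the 4-fold threshold over the other WT cells, which include plasma cells, beside 4.77% of all tested genes. Against cDC1, cDC2 and B2 cells, 3, 6 and 8 of the 22 were at least 2-fold higher in members and 1, 0 and 0 were lower, beside 18.4%, 15.8% and 15.6% of all genes higher and 13.5%, 14% and 11.4% lower. Xbp1, the factor that expands the endoplasmic reticulum, was found in 52 of 56 members at 3.57 against 1.03, 1.13 and 1.14, and Manf at 4.10 against 2.25, 1.51 and 1.99. Of 13 retinoic acid genes 7 had no UMI in WT members; Aldh1a2, the synthetic enzyme that marks the stromal cells of this study, had UMIs in 2, and the receptors Rara and Rxrb in 22 and 17.

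Lymphoid traits were partial among cells that the rule required to lack Ms4a1 and Cd3e. Low levels of other B and T cell genes are thus partly set by the rule. The 18 WT and 3 Postn-DTR cells left out with Ms4a1 had medians of 20 and 74 Cd79a UMIs. Dntt, the terminal transferase that adds bases at antigen receptor joints in lymphoid precursors, was found in 23 of 56 WT and 6 of 17 Postn-DTR members, at 0.877 and 1.35. It had no UMI in 110 cDC1, 176 cDC2 or 1785 B2 cells, and 13 of 3060 WT T cells (0.425%) had one. The B cell factors Ebf1 and Pax5, and Rag1 and Vpreb3, had no UMI in members of either library. Cd79b was found in 22 WT members at 0.701 against 17.1 in B2 cells. Ighm and Igkc were found in 54 and 32 WT members, but 67.2% and 29.0% of WT T cells also had a UMI of them, and the means of 33.3 and 27.6 rested on the members outside the leading cluster. Within that cluster they averaged 9.77 and 3.34.

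Of 15 genes that mark transitional cells between plasmacytoid and conventional dendritic cells, 9 were detected in 10% or more of WT members and 1 passed the threshold over the other WT cells, Cd209a. Against cDC2 none of 13 tested was at least 2-fold higher and 9 were lower, beside 15.8% and 14% of all genes. Against cDC1 4 of 11 were higher and 4 lower (18.4% and 13.5%), and against B2 cells 6 of 14 were higher and 4 lower (15.6% and 11.4%). Axl was found in 1 WT member, Siglec1 in none and Cx3cr1 in 3, all of the last outside the leading cluster, whereas Sirpa, an inhibitory receptor of myeloid cells, was found in 41 and Itgax, the integrin CD11c, in 24. Cd209a was found in 25 members at a mean of 2.98 and a highest value of 34.7, against a mean of 10.7 in cDC2. Outside the leading cluster in WT, 1 member combined 54 Irf8, 10 Cx3cr1, 10 Klf4 and 18 Mki67 UMIs with 2 Siglech UMIs. Of 13 cell cycle genes, 10 were at least 2-fold lower in WT members than in cDC1, 7 than in cDC2 and 1 than in B2 cells, beside 13.5%, 14% and 11.4% of all genes, and none was higher. In Postn-DTR 12 of the 13 were detected in 10% or more of members, and 6 of 9 tested were higher than in cDC1, 8 of 9 than in cDC2 and 9 of 13 than in B2 cells, beside 26.3%, 24.7% and 18% of all genes there, with 11 cDC1 and 20 cDC2 cells to compare. Mki67, a marker of dividing cells, was found in 5 WT and 3 Postn-DTR members, the 3 Postn-DTR cells all lying outside the leading cluster. For the 5 cell cycle genes compared between libraries, the median log2 ratio of Postn-DTR over WT was 0.68 in all members. In the leading cluster it was -1.46, so higher cell cycle levels in Postn-DTR were not seen there.

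Between the libraries, members could be compared for 2284 genes with at least 50 UMIs over both. On the log2(mean + 0.05) scale 48 genes (2.1%) were at least 2-fold higher in Postn-DTR and 127 (5.56%) at least 2-fold lower, and the median over all 2284 was -0.02. Counting intervals left out a ratio of 1 for 46 of the higher and 93 of the lower genes. With 1 library per group and 17 cells in the smaller, these are differences between these libraries and not between genotypes. In the leading cluster, 25 of the 48 higher and 87 of the 127 lower genes again passed 2-fold in the same direction, while 9 and 9 had the opposite sign. For 17 of the lower genes 1 cell held 50% or more of the UMIs.

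Of 9 transcription factors of plasmacytoid cells tested none was called in either direction, with a median log2 ratio of -0.16. Of 25 tested surface and granule genes 3 were called lower and none higher, beside 5.56% and 2.1% of all genes, with a median log2 ratio of 0.08. Irf8 averaged 30.8 ± 14.0 in WT and 27.5 ± 12.8 in Postn-DTR members, a log2 ratio of -0.16 with a counting interval of the summed UMIs from -0.21 to 0.11. The levels of the rule genes are partly set by the choice of members in both libraries and are given as a description: Siglech differed by -0.02 (-0.18 to 0.23) and Bst2 by -0.06 (-0.23 to 0.04). Klk1 and Ccr9 were 1.53- and 1.39-fold higher in Postn-DTR and not called.

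Cox6a2 was the exception among the rule genes. It ranged from 0 to 69.5 in WT with a median of 12.3, and from 0 to 8.70 in Postn-DTR with a median of 1.61. The ranges overlap at the low end, and no Postn-DTR member reached the WT median. The means of 13.3 ± 12.8 and 2.84 ± 3.07 gave a log2 ratio of -2.21 (-2.37 to -1.48), and -2.13 in the leading cluster. After thinning each cell to 2000 UMIs, 71.4% of WT and 35.3% of Postn-DTR members kept a UMI. Ly6d was lower as well, with medians of 28.5 and 3.58 and highest values of 139 and 63.1. Its log2 ratio was -1.98 (-2.40 to -1.84) in all members and -1.55 in the leading cluster, and it was -0.85 in B2 cells and -1.04 in all cells outside members. Cd8a (1.14 and 0.0948, log2 ratio -3.04) and Clec12a (4.02 and 1.80, -1.14), an inhibitory lectin, were the other surface genes called lower.

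MHC class II genes were lower in Postn-DTR members. Of 9 genes of the list tested, 6 were called lower and none higher, with a median log2 ratio of -1.60, and of -1.46 in the leading cluster, beside 5.56% of all genes called lower. H2-Aa had a WT median of 49.2 and a highest value of 155, against 14.7 and 60.1 in Postn-DTR. The means of 50.2 ± 34.8 and 16.5 ± 18.2 gave a log2 ratio of -1.60 against -2.21 to -1.79 on summed UMIs, in which deep cells weigh more. Cd74 averaged 157 ± 100.2 and 51.8 ± 52.6, a log2 ratio of -1.60 in all members and -1.24 in the leading cluster. H2-Ab1 and H2-Eb1 had log2 ratios of -1.78 and -2.16, and H2-DMb2 and H2-Oa of -2.29 and -1.64. H2-DMa, which loads peptide onto class II, did not differ by 2-fold (5.13 and 5.12). In the other dendritic and B cells the same contrast was small: for H2-Aa the log2 ratio was 0.25 in cDC1, 0.18 in cDC2 and -0.12 in B2 cells, and for Cd74 -0.02, 0.01 and -0.22. Over all cells outside members it was -1.14 and -0.94, and 7.75% of WT against 4.02% of Postn-DTR T cells had an H2-Aa UMI. The part of free RNA in this difference was not tested.

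Interferon-stimulated genes gave 2 of 9 tested genes called lower and none higher, beside 5.56% and 2.1% of all genes. Ifi27l2a averaged 4.57 and 1.34, a log2 ratio of -1.73, with -2.23 in cDC2 and -1.56 in B2 cells. Trim30a averaged 2.07 and 0.923, a log2 ratio of -1.12 (-1.69 to -0.06). The common cytokine receptor chain gene Il2rg was called lower as well, with a log2 ratio of -1.02 (-2.18 to -0.39).

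Fkbp5, a chaperone gene induced by glucocorticoids, had the highest ratio in Postn-DTR members. It was found in 11 of 56 WT members at no more than 1.37 and in 14 of 17 Postn-DTR members at up to 7.04, with medians of 0 and 2.83. The means of 0.194 and 3.16 gave a log2 ratio of 3.72 (2.82 to 4.74), and 3.96 in the leading cluster. The same direction was seen in cDC1 (3.33), cDC2 (3.45), B2 cells (2.62) and all cells outside members (1.69), so plasmacytoid cells were not alone in it. Tsc22d3, the glucocorticoid-induced leucine zipper, averaged 2.02 and 5.08, a log2 ratio of 1.31 (0.65 to 1.59), and 1.28, 1.29 and 0.79 in cDC1, cDC2 and B2 cells. These were the 2 called higher of the 4 genes tested from a list of 8, beside 2.1% of all genes, the others being Per1 (-0.36) and Dusp1 (0.47). Rbm3, a cold-inducible RNA-binding protein, had a WT median of 5.41 and a Postn-DTR median of 16.3, a log2 ratio of 1.57 (1.46 to 1.92), with 1.02, 0.81 and 0.78 in the same classes.

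For some of the higher genes the other classes had ratios near or below 1. Irak1, a kinase of Toll-like receptor signalling, averaged 0.548 and 1.48 in members, a log2 ratio of 1.35 (0.93 to 2.59). In cDC1, cDC2 and B2 cells its log2 ratio was -0.32, -0.36 and 0.19. Of 10 tested sensing genes only Irak1 was called, beside 2.1% of all genes called higher and 5.56% called lower. Runx1 had a log2 ratio of 2.0 in members (1.32 in the leading cluster) against -1.09, 0.04 and -0.19. Ccl3 was 1.41 higher (0.59 to 1.80), in 6 of 17 members against 17 of 56, and 0.72 without its highest cell. Ccl4 averaged 44.5 ± 72.2, up to 261, and was not called (0.72). These differences between classes were not tested.

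The lowest ratios came from genes of other lineages carried by few cells. S100a8 was found in 3 WT members, and 2 of them held 1700 and 1406 of its 3107 UMIs; in the leading cluster the log2 ratio turned from -7.58 to 1.20. The 7 neutrophil markers together gave 0 to 5502 UMIs in WT members with a median of 0, with none of the markers at 0 over the group, and 0 to 2 in Postn-DTR, where Retnlg, Csf3r and Cxcr2 were at 0. Of 8 plasma cell markers the sum ranged from 1 to 1230 in WT with a median of 5, and from 0 to 26 in Postn-DTR with a median of 7, where Tnfrsf17 and Prdm1 were at 0. Ighm (-2.10) and Igkc (-2.57) were called lower in all members, with 0.03 and 0.73 in the leading cluster. In the reverse direction Klf4 (2.08), Ifitm2 (1.87), Fcgrt (1.62) and Crip1 (1.01) were called higher in all members but had log2 ratios of -1.78, -1.32, -0.31 and -0.20 in the leading cluster. Pclaf, a replication gene, was called higher (2.40) on 3 cells in each library, with no UMI in the leading cluster of either.

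**Figure D5:**
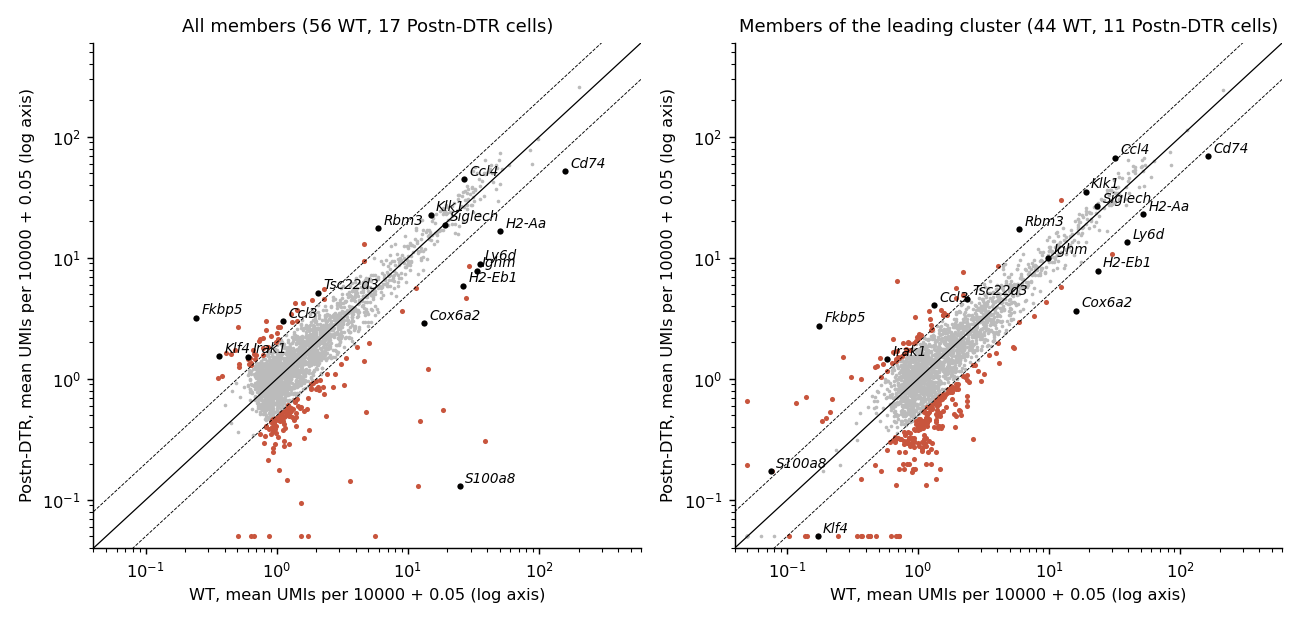
Mean level of each gene with at least 50 UMIs in WT (x axis) and Postn-DTR members (y axis), in UMIs per 10000 plus 0.05 on log axes, for all members (left) and for those in the leading cluster (right). The solid line marks equal levels, dashed lines 2-fold, red points lie beyond them and black points are named; Cox6a2, Cd74, H2-Aa, H2-Eb1 and Ly6d lie below and Fkbp5 and Rbm3 above in both plots, and S100a8 and Klf4 change sides.

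Markers of other lineages differed in how far they reached members. The rule left out cells with a UMI of Cd3e, Ms4a1, C1qa or Xcr1. Low sums of T cell, B cell, macrophage and cDC1 markers are thus partly set by it and are a description only. The 18 WT cells left out with Ms4a1 had a median of 20 Cd79a UMIs, and 10 of them fell in the leading cluster. Of 8 B cell markers the sum had a median of 0 and a maximum of 14 UMIs in WT and 3 in Postn-DTR, with Pax5, Ebf1, Fcer2a and Cr2 at 0 in both. The 7 T cell markers reached at most 7 and 1 UMIs, with Cd3g and Trbc2 at 0 in both. The 6 cDC1 markers had a median of 1 in each, and the 6 cDC2 markers medians of 4.5 and 7 with maxima of 28 and 22. The cDC2 markers had 3 or more UMIs in 39 of 56 WT and 14 of 17 Postn-DTR members, and summed to 5.94 and 9.08 UMIs per 10000 against 1.35 and 0.542 in the other cells. The 8 macrophage markers reached 7 and 5 UMIs, the 6 NK markers 44 in 1 WT member and 0 in Postn-DTR, and the 7 stromal markers 3 and 1. Monocyte markers had medians of 40 and 36, and summed to 54.5 and 40.3 per 10000 against 34.2 and 36.4 in the other cells; this list holds Ly6c2 and Plac8, which plasmacytoid cells express at 23.8 and 21.2 in WT.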

How the data were processed

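Single-cell suspensions of omentum from WT and Postn-DTR mice were run on the 10x Chromium system, 1 library per group. The labels name a 5′ kit and the study's methods a 3′ kit, and Cell Ranger 6.0.0 with mm10 is named in the submitters' processing notes; the version in the methods differs. The authors deposited 1 matrix per library of natural log values, ln(1 + UMIs per 10000 UMIs of the cell). The step between low values gave whole UMIs for 99.95% (WT) and 99.89% (Postn-DTR) of values within 0.1 UMI, and UMI totals were 80640812 and 81121001, so members had a median of 8360 and 7396 UMIs.

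Cells with 200 to 7500 genes were kept (8680 of 8686 and 5734 of 5736). Members were chosen by the rule given above and compared with cDC1, Cd209a cDC2 and B2 cells gated by marker genes, with Python 3.11.15, scanpy 1.11.5 and scipy 1.17.1. Clustering used 2000 variable genes, 30 components and Leiden resolution 1; doublets were called with Scrublet and not removed. Members against other cells were called at 4-fold (0.02 added, 10% of members), the libraries at 2-fold (0.05 added, 50 UMIs), and the classes at 2-fold (0.02 added, 10 UMIs). Shares carry 95% exact binomial intervals and ratios of summed UMIs exact conditional ones, for counting error only; a ratio of shares has a Katz interval. No test was made, since each group was 1 library. Scripts were tested on simulated data. The members and lists were chosen with earlier results of these data known. Named genes were all members of the lists, the 20 highest and 10 lowest ratios over other cells, the 10 highest and lowest between libraries, and the 10 most variable. Gene coordinates are those of GENCODE M21 (GRCm38), which also named 1060 genes listed by identifier only. Promoters of Cox6a2 and Ly6d, Rag2, Mx1 and Mx2 and most interferon genes were not analysed here. Sequences from RefSeq matched 12 of 14 genes wanted. Some genes of the lists are not reported here by name.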

Additional observations from a re-analysis of the deposited data

How the results depend on the processing

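Of 110 values of the shares, counts and classes under other settings, 94 stayed within the interval or within 1.5 times the main count, and of 800 ratios of named genes 749 kept their direction and stayed past the threshold, whatever their size. Part of this was fixed in advance. The named genes were picked because their ratios passed the threshold. The 20 over other cells were the highest of all, rule genes among them, and stayed past it under every setting. A minimum of 500 genes, a limit of 25% mitochondrial UMIs and removal of doublets took away no member, and UMI and share minimums do not enter a ratio. All 36 ratios between libraries were therefore unchanged under these settings. The WT share was 0.933% with no lineage exclusion. Without cells gated as plasma cells or neutrophils the Postn-DTR share was 0.528% (0.747% with members kept) and the ratio of shares 0.836 (0.951). Genes called over other cells numbered 189 in WT and 266 in Postn-DTR with 0.1 added, and 1019 in Postn-DTR by summed UMIs as CPM. Between libraries, genes higher in Postn-DTR numbered 88 with no lineage exclusion, 25 in the leading cluster, 1077 with no UMI minimum and 17 at 100 UMIs. Genes lower in Postn-DTR numbered 251 with no lineage exclusion, 1516 with no UMI minimum and 47 at 100 UMIs. They numbered 194 when, gene by gene, the member with the most UMIs of that gene was left out of each library. In the leading cluster the sign turned for Camp (3.73), Crip1 (-0.20), Fcgrt (-0.31), Ifitm2 (-1.32), Ighg3 (2.36), Ighm (0.032), Igkc (0.73), Klf4 (-1.78), Ltf (1.96), Ngp (1.16), S100a8 (1.20) and S100a9 (1.26). With Irf8 required and under 20 UMIs of Jchain, S100a8 and S100a9, chosen after seeing the data, it turned for Camp (3.23), Ighg3 (1.98), Igkc (0.63), Ltf (1.58), Ngp (0.86), S100a8 (0.90) and S100a9 (0.93). Without the member with the most UMIs of the gene in each library, the sign turned for Ighg3 (1.17). The cause of each was not tested. No paired analysis was possible because each group was 1 library of pooled mice. Fewer than 20 cells in Postn-DTR limit every ratio between libraries.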

Other observations

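The cell-to-cell spread of WT members was widest for genes of other lineages. After each cell was thinned to 2000 UMIs, the 10 highest ratios of variance to mean belonged to S100a9 (218), Ighg3 (193), Igkc (189), S100a8, Ighm, Camp, Jchain, Ngp, Gm42418 and Lcn2. Of these S100a9 had UMIs in 6 and Jchain in 15 of 56 WT members, and Gm42418, a gene that overlaps ribosomal RNA, in all. In the leading cluster S100a9 averaged 0.136 and Jchain 0.218 UMIs per 10000, against 180.4 and 65.0 in members elsewhere.

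Several little-described genes were higher in the Postn-DTR members than in the WT members, and also marked plasmacytoid cells. Sh3bgr and Slco4a1 were among the listed highest ratios over other cells in Postn-DTR only, and Lrp8 in WT only. Tns1 was among the listed highest ratios of Postn-DTR over WT. The direction of these genes between the libraries was thus partly set by how they were picked, and is a description only. Sh3bgr averaged 0.958 in WT and 2.33 in Postn-DTR members, a log2 ratio of 1.24 (0.48 to 1.89 on summed UMIs) and 0.69 without its highest cell. Slco4a1, an organic anion transporter, averaged 0.735 and 2.13, a log2 ratio of 1.48 (0.55 to 2.07), and Tns1, the focal adhesion protein tensin 1, 0.399 and 1.55, a log2 ratio of 1.84 (1.26 to 2.93). Lrp8 was lower, at 3.30 and 1.44, a log2 ratio of -1.17 (-1.82 to -0.43). In the leading cluster the log2 ratios were 1.60, 1.76, 1.43 and -1.05, each on the same side. These rest on 17 Postn-DTR cells of 1 library and were not tested.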
